A study of Mus musculus with 18 samples.

Results

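The apoptotic cell uptake genes described here are 7 genes chosen by name: the receptors *Mertk*, *Axl*, *Tyro3* and *Timd4*, and the bridging proteins *Gas6*, *Pros1* and *Mfge8*. All 7 were found by symbol among the 20298 genes of the RNA-seq table. The cells were Ly6C+ CCR2+ monocytes enriched from the bone marrow of WT mice and of STAT5 tetramer-deficient mice, in which *Stat5a* and *Stat5b* both carry N-domain mutations (double knock-in, DKI). Strain C57BL/6 is given for both genotypes by the labels (C57BL/6J for the DKI mice in the study's methods), and the ages of the animals are not given in the sources used here. Monocytes of each genotype were taken without treatment on day 0, or after 3 or 6 days of culture with 20 ng/mL of the cytokine GM-CSF, when they are called monocyte-derived cells (MDCs). Each of the 6 groups had 3 libraries, from 3 independent experiments. The knock-in is carried by all cells of the animal and not by monocytes alone, and each library is RNA of a whole culture started from enriched, not pure, monocytes.

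Dying cells expose phosphatidylserine, a lipid that healthy cells keep on the inner face of the plasma membrane. Phagocytes bind it either directly, as with TIM-4 (the product of Timd4), or through a soluble bridge. Gas6 and protein S (the product of Pros1) bridge the lipid to the TAM receptor tyrosine kinases Tyro3, Axl and MerTK, and MFG-E8 bridges it to integrins. MerTK is widely used to mark macrophages, whereas Axl is known to be induced in activated dendritic cells and macrophages.

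Library depth, recovered from the deposited values, was 29542198 to 43157716 reads counted on genes (the recovered reads of all genes summed to 100% to 100.023% of these totals). The labels name liver as the tissue, but the hepatocyte markers *Alb* and *Ttr* were at 0 in all 18 libraries and *Apoa1* did not pass 0.0470 RPKM (reads scaled by gene length and library depth), and the Kupffer cell marker *Clec4f* did not pass 0.0107 RPKM. Of the same list, *Cd5l* reached 29.9 RPKM and *Marco* 12.5 RPKM in single libraries. On day 0 the sum of 5 monocyte markers was 1806 to 3039 RPKM. Neutrophil markers (7 genes) summed to 1501 to 2946 RPKM on day 0 and to 15.2 to 2707 RPKM later, none of them called between the genotypes. On day 0 the largest part was *S100a8* (means of 1154 RPKM in WT and 1162 RPKM in DKI cells). *Camp*, *Ngp*, *Elane* and *Mpo* averaged between 162 and 329 RPKM, and *Ly6g* only 1.94 and 2.42 RPKM. Because a library is a mixture, fewer cells of a type and less RNA per cell cannot be told apart in any value below.

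In the GRCm38.p6 assembly of RefSeq, *Mertk* spans chr2:128698915-128803162 on the plus strand, *Tyro3* chr2:119797740-119818104 (plus), *Axl* chr7:25756500-25788924 (minus) and *Timd4* chr11:46810786-46844333 (plus). Of the ligands, *Gas6* spans chr8:13465374-13494535 (minus), *Pros1* chr16:62854307-62929346 (plus) and *Mfge8* chr7:79133768-79149060 (minus). The values are sums over the exons of each gene. The only annotated exon overlap with another gene was 34 bases shared by *Gas6* and *Tmem255b* on opposite strands (GENCODE M21).

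STAT dimers are known to bind the GAS motif, TTCNNNGAA, which reads the same on both strands. It was searched in 1 window per member that ran from 250 bases before to 50 bases after the RefSeq start. For *Axl*, *Tyro3* and *Timd4* that start lies inside the annotated gene, and their sequence is not shown. A match was present in the *Pros1* window alone, against 8.30% of all 32851 windows of the promoter table. The 250 bases before the start are shown for *Mertk* and *Gas6*, which were higher in DKI MDCs on day 3, for *Mfge8*, whose values were lower there without passing the test, and for *Pros1*, which holds the match, TTCCAGGAA, in capitals 92 bases before its start. They lie at chr2:128698665-128698914, chr8:13494536-13494785, chr7:79149061-79149310 and chr16:62854057-62854306 in the same build, and each is written 5′ to 3′ on the strand of its gene.
Mertk: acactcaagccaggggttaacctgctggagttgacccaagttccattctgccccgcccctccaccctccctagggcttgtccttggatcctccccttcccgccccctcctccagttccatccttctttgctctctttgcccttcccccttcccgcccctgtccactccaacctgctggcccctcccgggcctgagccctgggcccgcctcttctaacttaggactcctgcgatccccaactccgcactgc
Gas6: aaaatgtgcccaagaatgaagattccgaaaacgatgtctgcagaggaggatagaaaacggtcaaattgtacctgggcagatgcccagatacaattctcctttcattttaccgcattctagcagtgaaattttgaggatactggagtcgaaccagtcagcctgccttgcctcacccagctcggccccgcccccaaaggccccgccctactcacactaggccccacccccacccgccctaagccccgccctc
Mfge8: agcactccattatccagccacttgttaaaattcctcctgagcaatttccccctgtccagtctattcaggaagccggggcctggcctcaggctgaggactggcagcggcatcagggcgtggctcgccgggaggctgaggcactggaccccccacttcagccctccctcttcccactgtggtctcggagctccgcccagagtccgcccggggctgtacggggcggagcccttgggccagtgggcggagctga
Pros1: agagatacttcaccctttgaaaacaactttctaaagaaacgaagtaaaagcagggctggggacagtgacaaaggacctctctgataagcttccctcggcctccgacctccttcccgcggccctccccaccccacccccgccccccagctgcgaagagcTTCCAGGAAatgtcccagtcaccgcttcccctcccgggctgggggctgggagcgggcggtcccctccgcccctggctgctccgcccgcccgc
No match in a window says only that these letters are absent there.

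In DKI MDCs on day 3, *Mertk* and *Gas6* were higher and *Axl* was lower than in WT MDCs. *Tyro3* was lower on day 6, and no member was called on day 0. A gene was tested where its mean was above 2 RPKM in at least 1 compared group, and called at a limma adjusted p (Benjamini-Hochberg, over all genes tested) under 0.05 with a fold above 1.5 on the log2(RPKM + 1) scale. On day 3, 5 of the 7 members passed the filter and 3 were called, where 7.42% of the 9740 genes tested were (3.21% higher and 4.21% lower in DKI MDCs). The values of 4 of the 5 members tested (*Mertk*, *Axl*, *Gas6* and *Mfge8*) did not overlap between the genotypes, as for 36.3% of the genes tested, and nor did those of *Tyro3*, which was under the filter. On day 6, 6 passed and 1 was called, where 7.54% of 9842 were (2.72% higher and 4.82% lower), and *Tyro3* passed through WT MDCs only. There 4 members (*Mertk*, *Axl*, *Tyro3* and *Gas6*) did not overlap, as for 37.2% of genes. On day 0, 3 passed and limma called 0 of them and 0% of the 9179 genes, 44 of which and no member had an unadjusted p under 0.05 (the voom form of the test on recovered reads also called 0). With the replicate number as a block limma called 0 as well, and 352 genes, *Axl* and *Pros1* among them, had an unadjusted p under 0.05.

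**Figure D1:**
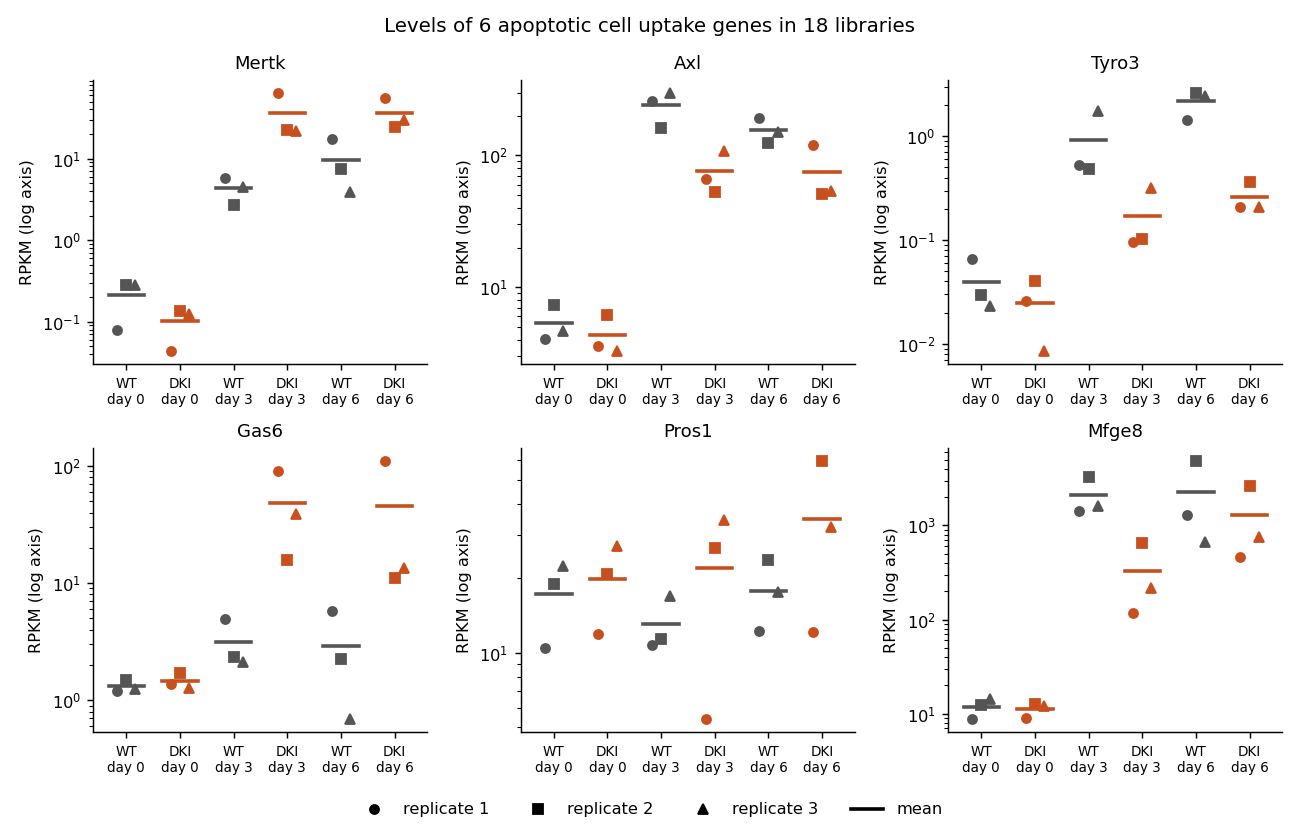
RPKM (log axis) of 6 members in each of the 18 libraries, by genotype (WT grey, DKI orange) and day, with replicates 1, 2 and 3 as circle, square and triangle and a bar at the mean of 3. *Mertk* and *Gas6* sit higher, and *Axl* and *Tyro3* lower, in all DKI libraries of days 3 and 6 than in any WT library of the same day, while *Pros1* overlaps. *Timd4* is left out because 13 libraries held no read of it.

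*Mertk*, the receptor of the macrophage lineage, was close to absent in monocytes. On day 0 it read 0.0803, 0.279 and 0.285 RPKM in WT replicates 1, 2 and 3 and 0.0434, 0.137 and 0.124 RPKM in the DKI ones, or 6 to 42 reads a library. The same-numbered ratios of DKI to WT were 0.541, 0.490 and 0.434. These values overlapped and lay under the filter of the test (exact permutation test of the means, two-sided p = 0.3, smallest possible 0.1). On day 3 it read 5.80, 2.73 and 4.48 RPKM in WT MDCs and 64.2, 22.3 and 21.7 RPKM in DKI MDCs. The lowest DKI library was thus above the highest WT library, and the genotypes did not overlap. The difference was 2.65 ± 0.46 (SE, n = 3 per genotype) on the log2(RPKM + 1) scale, with a limma adjusted p of 0.0251, and same-numbered pairs differed 11.1-, 8.15- and 4.84-fold. Leaving out any 1 WT library of day 3 took the adjusted p to between 0.072 and 0.0882.

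On day 6 *Mertk* read 17.2, 7.49 and 3.94 RPKM in WT MDCs and 54.8, 24.5 and 29.5 RPKM in DKI MDCs. Again all DKI libraries were above all WT libraries. The difference of 1.94 ± 0.52 was not called (limma adjusted p = 0.0689), and was called with the replicate number entered as a block (adjusted p = 0.0328) and with all 18 libraries in 1 fit (adjusted p = 0.0099).

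Both genotypes gained *Mertk* in culture. From day 0 to day 3 the log2 difference was 2.10 ± 0.27 in WT cells (limma adjusted p = 0.00121) and 4.89 ± 0.42 in DKI cells (adjusted p = 0.000983). The test of the difference between these changes gave 2.79 ± 0.52 on the log2 scale (limma adjusted p = 0.0188), so the rise was larger in DKI cells. Without replicate 2 of either genotype on day 0, that adjusted p was 0.0526 or 0.0529. In voom on the recovered reads it was 0.34.

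*Axl*, the TAM receptor with the highest level here, differed the other way between the genotypes on day 3. It was modest in monocytes, with 4.04, 7.36 and 4.69 RPKM in WT and 3.55, 6.16 and 3.26 RPKM in DKI cells. These overlapped (difference -0.26 ± 0.29, limma adjusted p = 1). In MDCs of day 3 it read 259, 162 and 299 RPKM in WT and 66.4, 52.6 and 109 RPKM in DKI. All 3 DKI values lay under all 3 WT values. The difference was -1.67 ± 0.35 (limma adjusted p = 0.0409), but of the 6 libraries only DKI replicate 3 could be left out without losing the call, the adjusted p being 0.0661 to 0.14 without any other 1. It was 0.0545 in voom.

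On day 6 *Axl* read 193, 124 and 149 RPKM in WT MDCs and 120, 50.5 and 53.7 RPKM in DKI MDCs. DKI replicate 1 (119.9 RPKM) lay just under the lowest WT library (123.7 RPKM), and the other two far below it. The difference of -1.14 ± 0.37 was not called (limma adjusted p = 0.103). Without DKI replicate 1 it was -1.53 and called (adjusted p = 0.0413).

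*Axl* also rose strongly in culture in both genotypes, by 5.23 ± 0.29 in WT (limma adjusted p = 4.95e-05) and 3.83 ± 0.33 in DKI cells (adjusted p = 0.000983) from day 0 to day 3. The test of the difference between these rises gave -1.41 ± 0.47 (limma adjusted p = 0.158), so a smaller rise in DKI cells was not shown.

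*Tyro3*, the TAM receptor best known from the nervous system, was the scarcest of the 3. Monocytes held 1 to 11 reads of it a library, at most 0.0656 RPKM, and the genotypes overlapped (exact permutation test, two-sided p = 0.5). On day 3 it read 0.533, 0.480 and 1.75 RPKM in WT MDCs and 0.0956, 0.102 and 0.314 RPKM in DKI MDCs. The ranges did not overlap, but all values lay under the filter (exact permutation test of the means, two-sided p = 0.1, the smallest possible with 3 against 3). The same-numbered ratios of WT to DKI were 5.57, 4.71 and 5.59.

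On day 6 *Tyro3* read 1.44, 2.63 and 2.46 RPKM in WT MDCs and 0.209, 0.360 and 0.210 RPKM in DKI MDCs. Every WT library was above every DKI library, and the ratio of the means was 8.38. The difference was -1.32 ± 0.26 on the log2(RPKM + 1) scale (limma adjusted p = 0.0362), a scale that understates folds near 1 RPKM, and -3.03 ± 0.59 in voom on log2 reads scaled to depth (adjusted p = 0.0442). With the replicate block the adjusted p was 0.0527. Leaving out WT replicate 2 took *Tyro3* under the filter, and leaving out WT replicate 1 or 3 or DKI replicate 1 or 3 gave adjusted p values of 0.0694 to 0.132.

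*Timd4*, which encodes a phosphatidylserine receptor of resident macrophages, was not detectable at this depth. It had 8 reads over the 18 libraries, none in any day 3 library and at most 3 in 1 library. With 3 reads as the limit that a count of 0 allows, the 13 libraries at 0 could each have held up to 0.0321 to 0.0467 RPKM, which covers counting error only.

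Among the bridging proteins, *Gas6* was higher in DKI MDCs on day 3, as *Mertk* was. *Gas6*, a vitamin K-dependent protein and a ligand of the TAM receptors, read 1.20, 1.48 and 1.26 RPKM in WT and 1.37, 1.72 and 1.28 RPKM in DKI monocytes, which overlapped (exact permutation test, two-sided p = 0.5). On day 3 it was 4.92, 2.36 and 2.10 RPKM in WT MDCs and 89.9, 15.8 and 39.0 RPKM in DKI MDCs. The genotypes were far apart, the lowest DKI library being well above the highest WT library. The difference was 3.32 ± 0.61 (limma adjusted p = 0.0290), and 2.72 or 3.93 without DKI replicate 1 or 2. Without any 1 WT library or DKI replicate 3 the adjusted p was 0.0666 to 0.104, and in voom it was 0.0521.

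On day 6 *Gas6* read 5.78, 2.25 and 0.688 RPKM in WT MDCs and 111, 11.01 and 13.3 RPKM in DKI MDCs. The genotypes did not overlap, yet DKI replicate 1 stood far above the other two. The difference of 3.01 ± 0.94 was not called (limma adjusted p = 0.0953), and was 1.98 without that library. Same-numbered pairs differed 19.3-, 4.90- and 19.4-fold, and with the replicate block it was called (adjusted p = 0.0372).

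Replicate 1 held the highest *Gas6* value of its group on day 3 and on day 6 in both genotypes, and its library names carry an earlier year than the others. Without these libraries the *Gas6* difference was 3.01 on day 3 (limma adjusted p = 0.0467) and 2.49 on day 6 (adjusted p = 0.112). Of the other day 3 calls, *Mertk* then had an adjusted p of 0.0261 and *Axl* one of 0.157. From day 0 to day 3 *Gas6* rose by 4.01 ± 0.56 in DKI cells (limma adjusted p = 0.00414). In WT cells the change of 0.77 ± 0.28 was not called (adjusted p = 0.0562), although adding 0.1 in place of 1 RPKM gave 0.0449 and median centring 0.0387. The difference between these changes was 3.23 ± 0.68 (limma adjusted p = 0.0321). It lost its call in voom (0.208), with all 18 libraries in 1 fit (0.129), without the filter (0.0677) and without any 1 of the 6 libraries of day 0, WT replicate 2 or 3 of day 3 or DKI replicate 3 of day 3 (adjusted p 0.0531 to 0.079).

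*Pros1*, which encodes the other TAM ligand and blood anticoagulant protein S, was already present in monocytes and was not called in any of the 9 comparisons with all libraries in. It read 10.5, 19.0 and 22.3 RPKM in WT and 11.9, 20.8 and 27.0 RPKM in DKI cells on day 0. On day 3 it was 10.7, 11.4 and 16.99 RPKM in WT MDCs and 5.39, 26.4 and 34.4 RPKM in DKI MDCs. DKI replicate 1 was thus the lowest and the other DKI libraries the highest of the 6.

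The *Pros1* difference on day 3 was 0.41 ± 0.63 (limma adjusted p = 0.714, 95% interval -1.11 to 1.94). Without DKI replicate 1 it was 1.17 and called (limma adjusted p = 0.0453), and without DKI replicate 2 or 3 it was 0.12 or -0.06. On day 6 the values were 12.3, 23.6 and 17.6 RPKM in WT MDCs and 12.1, 59.8 and 32.2 RPKM in DKI MDCs. They overlapped, and the difference of 0.71 ± 0.56 was not called (limma adjusted p = 0.437). It was 1.30 without DKI replicate 1 and 0.19 without DKI replicate 2, and not called in either fit. In both genotypes replicate 1 had the lowest *Pros1* level on each of the 3 days.

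In WT cells *Mfge8* showed the largest rise of the members in culture. It encodes MFG-E8, the bridge to integrins, and read 8.73, 12.5 and 14.3 RPKM in WT and 9.04, 12.8 and 11.96 RPKM in DKI monocytes. By day 3 it had reached 1426, 3279 and 1589 RPKM in WT MDCs but 117, 646 and 217 RPKM in DKI MDCs. The rise was 7.28 ± 0.34 in WT (limma adjusted p = 2.94e-05) and 4.39 ± 0.58 in DKI cells (adjusted p = 0.00352).

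The genotypes did not overlap for *Mfge8* on day 3, and the difference of -2.94 ± 0.67 fell just short of the threshold (limma adjusted p = 0.0502). With the replicate block it passed (adjusted p = 0.0266), as it did with all 18 libraries in 1 fit (0.0155), median centring (0.0485), quantile normalization (0.0494) and 0.1 RPKM added (0.05 after rounding). It did not pass in voom (0.0772), without the filter (0.108) or without the libraries named for the earlier year (0.115). With 1 library left out it passed only without DKI replicate 2 (-3.61, limma adjusted p = 0.0287). Otherwise the adjusted p was 0.0731 to 0.156. The same-numbered ratios of WT to DKI were 12.2, 5.08 and 7.32. The difference between the rises was -2.88 ± 0.74 (limma adjusted p = 0.0696, and 0.0251 with the block). Replicate numbers showed little link between days 0 and 3, so the pairing behind the blocked value is not shown.

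On day 6 *Mfge8* read 1299, 4888 and 674 RPKM in WT MDCs and 461, 2622 and 756 RPKM in DKI MDCs. Replicate 2 was the highest library in both genotypes, and the ranges overlapped. The difference was -0.74 ± 0.90 (limma adjusted p = 0.615), with a 95% interval of -2.90 to 1.42. Single libraries set its size and direction: it was 0.05 without WT replicate 2, -1.38 without WT replicate 3 and -1.46 without DKI replicate 2.

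**Figure D2:**
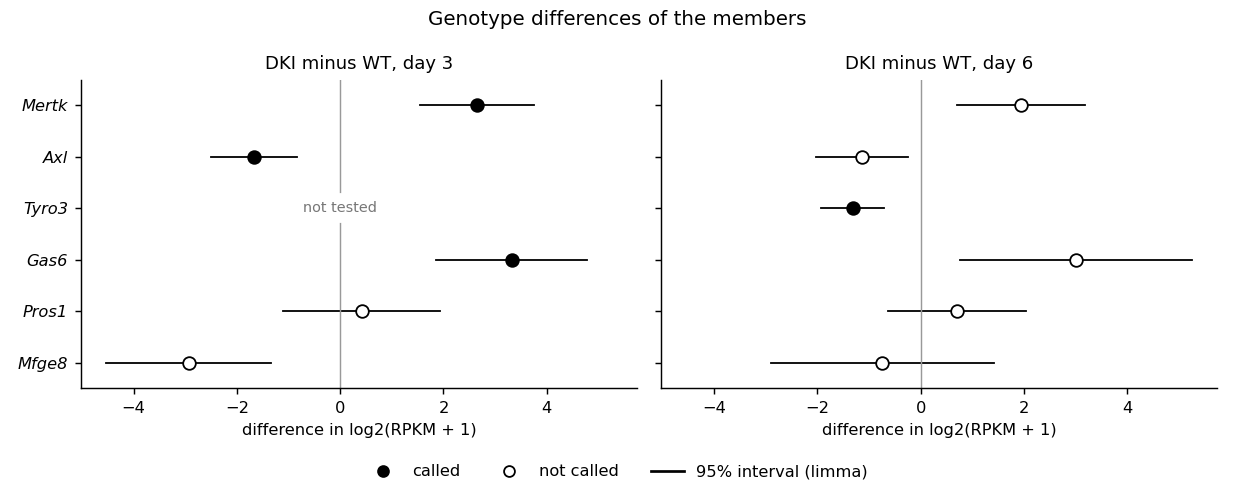
Difference between DKI and WT MDCs in log2(RPKM + 1) for 6 members on days 3 and 6, with the 95% interval of limma (n = 3 per genotype). Filled points were called (*Mertk*, *Axl* and *Gas6* on day 3, *Tyro3* on day 6) and open points were not. *Tyro3* was under the filter on day 3.

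From day 0 to day 3, 3 of the 7 members rose in WT cells (*Mertk*, *Axl* and *Mfge8*), where 43.1% of all genes tested were called and 20.3% rose. In DKI cells 4 rose (these and *Gas6*), where 34.2% were called and 13.1% rose. *Mertk* passed the filter through day 3 only in either genotype, and so did *Gas6* (means of 1.31 RPKM in WT and 1.45 RPKM in DKI cells on day 0). None of these 7 calls was lost under any alternative. The genotype by day test called 2 members (*Mertk* and *Gas6*), both with the larger rise in DKI cells, against 2.91% of genes called and 1.2% in that direction. From day 3 to day 6 limma called 0 members and 0% of all genes in either genotype and in the test between them, as did voom. At an unadjusted p under 0.05 there were 722 genes in WT cells, 93 in DKI cells and 89 in the test between them, with *Tyro3* the 1 member among them, in WT (0.76 ± 0.31, limma adjusted p = 0.649). With the replicate block limma also called 0, and these counts were 1221, 471 and 189. They then held *Tyro3* and *Axl* in WT cells and *Mfge8* in DKI cells and in the test between them. *Mfge8* was higher on day 6 than on day 3 in all 3 same-numbered DKI pairs, by 1.93 ± 0.16 in the blocked fit (limma adjusted p = 0.265).

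The TAM receptors can be compared within each library, since RPKM is per length. *Axl* made up 93.8 to 98.1% of their summed RPKM in every day 0 library of either genotype and in WT MDCs of day 3. In DKI MDCs it made up 50.8, 70.2 and 83.2% on day 3, with *Mertk* at 49.1, 29.7 and 16.6%. On day 6 *Mertk* made up 31.3, 32.5 and 35.4% in DKI MDCs, against 8.13, 5.60 and 2.53% in WT MDCs. The ratio of *Axl* to *Mertk* was thus 44.6 to 66.8 in WT and 1.04 to 5.02 in DKI MDCs on day 3, and 11.2 to 37.9 and 1.82 to 2.19 on day 6.

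The summed level of the 3 receptors was 74.9 to 131 RPKM in DKI MDCs on day 3, under the 165 to 306 RPKM of WT MDCs. On day 6 the sums overlapped, at 75.4 to 175 and 134 to 212 RPKM. These shares and sums restate the values of *Mertk*, *Axl* and *Tyro3* and were not tested.

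**Figure D3:**
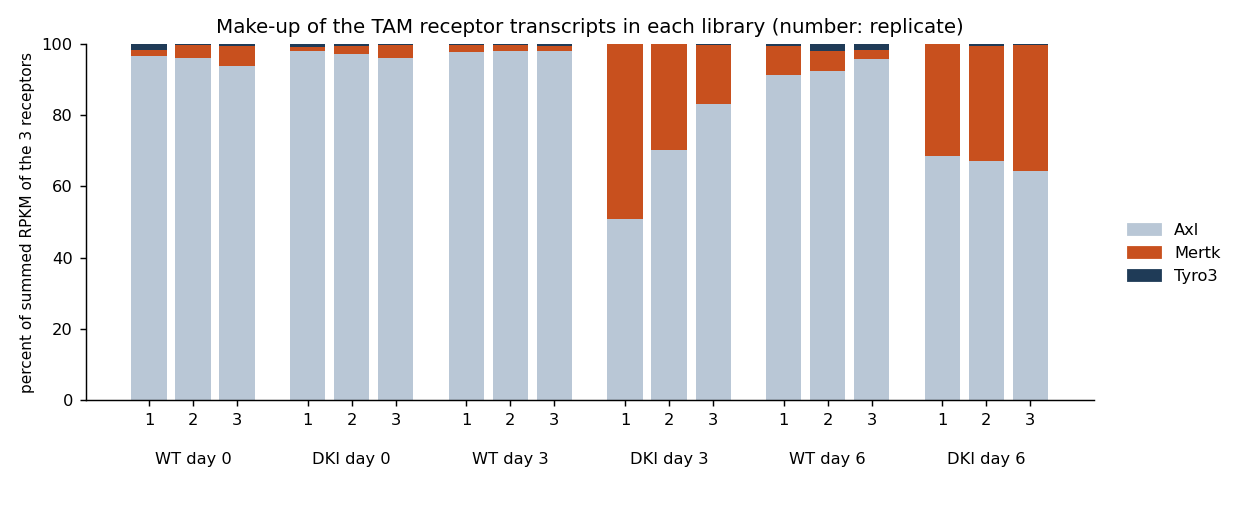
Percent of the summed RPKM of *Axl*, *Mertk* and *Tyro3* held by each receptor in every library, by genotype, day and replicate. *Mertk* fills 16.6 to 49.1% of the bars of DKI MDCs on days 3 and 6 and no more than 8.13% of any other bar.

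Of the TAM ligands, *Gas6* was 0.0473 to 0.115 times the level of *Pros1* in all 6 day 0 libraries. On day 3 the ratio was 0.458, 0.207 and 0.123 in WT MDCs and 16.7, 0.599 and 1.14 in DKI MDCs. No WT library reached the lowest DKI library on day 3, whereas on day 6 the ratios overlapped, at 0.0391 to 0.470 in WT and 0.184 to 9.17 in DKI MDCs.

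Ordered by mean RPKM, monocytes of both genotypes had *Pros1* and *Mfge8* first, with overlapping values, followed by *Axl*, *Gas6*, *Mertk*, *Tyro3* and *Timd4*. In WT MDCs of day 3 the order was *Mfge8*, *Axl*, *Pros1*, *Mertk*, *Gas6* and *Tyro3*, where *Mertk* and *Gas6* overlapped and the other neighbours did not. On day 6 WT MDCs kept that order, but *Pros1*, *Mertk* and *Gas6* each overlapped the next. In DKI MDCs of both days the order was *Mfge8*, *Axl*, *Gas6*, *Mertk*, *Pros1* and *Tyro3*. There only *Mfge8* above *Axl*, and *Tyro3* below the rest, stood clear of their neighbours.

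The other genes of apoptotic cell uptake were 64 in number, of which 63 were in the table and 56 were tested on each day. On day 3, 9 were higher in DKI MDCs and 0 lower by limma, with 7 and 0 in voom, where 3.21% of all genes were higher and 4.21% lower. Their median log2 difference was 0.49, beside -0.11 over all genes. On day 6, 8 were higher and 4 lower, where 2.72% and 4.82% of all genes were, with a median of 0.50 beside -0.17. The counts moved with single libraries, being 3 to 16 on day 3 and 1 to 13 on day 6 when 1 library was left out, and 6 and 2 without the filter. Of the 14 calls named by rule below (a gene on a day), 10 were lost without the libraries named for the earlier year, 9 without the filter and 3 in voom. Over the fits that left out 1 library, these calls were lost in 45 cases and kept in 39.

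Among other receptors, 3 of 15 tested were called higher on day 3. *Stab1*, which encodes the phosphatidylserine receptor stabilin-1, had a mean of 2.75 ± 3.64 RPKM (SD, n = 3) in WT and 118 ± 56.2 RPKM in DKI MDCs (log2 difference 5.33 ± 0.68, limma adjusted p = 0.0119). *Msr1*, the scavenger receptor A, was at 75.6 ± 17.1 and 295 ± 123 RPKM, and *Itgb5*, the beta chain of an integrin that binds MFG-E8, at 9.14 ± 3.48 and 34.7 ± 4.88 RPKM. Their log2 differences were 1.89 ± 0.35 and 1.87 ± 0.29 (limma adjusted p = 0.0289 and 0.0197).

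On day 6, 4 receptors were higher and 1 lower. *Stab1* (4.001 ± 0.846, limma adjusted p = 0.0426) and *Msr1* (2.06 ± 0.36, adjusted p = 0.0282) were higher again, with *Stab1* passing the filter there through DKI MDCs only. *Trem2*, a lipid-binding receptor of macrophages and microglia, went from 81.9 ± 34.0 RPKM in WT to 301 ± 3.08 RPKM in DKI MDCs (limma adjusted p = 0.0217). *Olr1*, the receptor for oxidised LDL, was lower, at 31.0 ± 8.77 and 4.34 ± 0.86 RPKM (limma adjusted p = 0.00803).

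No bridging protein outside the members was called on day 3, of 9 tested. On day 6 *Ptx3*, which encodes the opsonin pentraxin 3, was lower in DKI MDCs (46.1 ± 16.98 against 9.22 ± 3.52 RPKM, limma adjusted p = 0.0268). Of the receptors for find-me signals, *S1pr1* (for sphingosine 1-phosphate) was higher on both days, by 2.58 ± 0.24 on day 3 (limma adjusted p = 0.00616) and by 3.16 ± 0.59 on day 6 (adjusted p = 0.0330). It passed the filter through DKI MDCs only, with means of 0.324 ± 0.234 and 6.95 ± 1.49 RPKM on day 3 and of 0.677 ± 0.108 and 17.4 ± 11.4 RPKM on day 6. *Gpr132*, known as a lysophospholipid-linked receptor, was lower on day 6 (-1.73 ± 0.24, adjusted p = 0.0187).

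None of 8 tested genes of engulfment signalling was called on either day, nor either gene of the vitamin K-dependent carboxylation that *Gas6* and protein S require. In the sterol response that follows uptake, 2 of 8 genes were higher on day 3. One was *Nr1h3*, which encodes the oxysterol receptor LXR alpha, with a mean of 0.555 ± 0.062 RPKM for WT and of 7.44 ± 5.58 RPKM for DKI MDCs (2.23 ± 0.46, limma adjusted p = 0.0393, and 0.0599 with the replicate block). It too passed the filter through DKI MDCs only. *Ano6*, a scramblase that exposes phosphatidylserine, was higher on day 3 (1.78 ± 0.23, limma adjusted p = 0.0116) and on day 6 (1.91 ± 0.31, adjusted p = 0.0268). *Socs1*, a feedback inhibitor of cytokine signalling, was lower on day 6, at 72.6 ± 2.31 and 23.6 ± 8.15 RPKM (adjusted p = 0.0268). Not all genes called higher promote uptake. Of the 2 genes of the don't-eat-me axis, which restrains uptake, 1 was higher on day 3 and 1 on day 6. Of the 4 genes of TAM receptor shedding and feedback, 1 was higher on day 3.

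**Figure D4:**
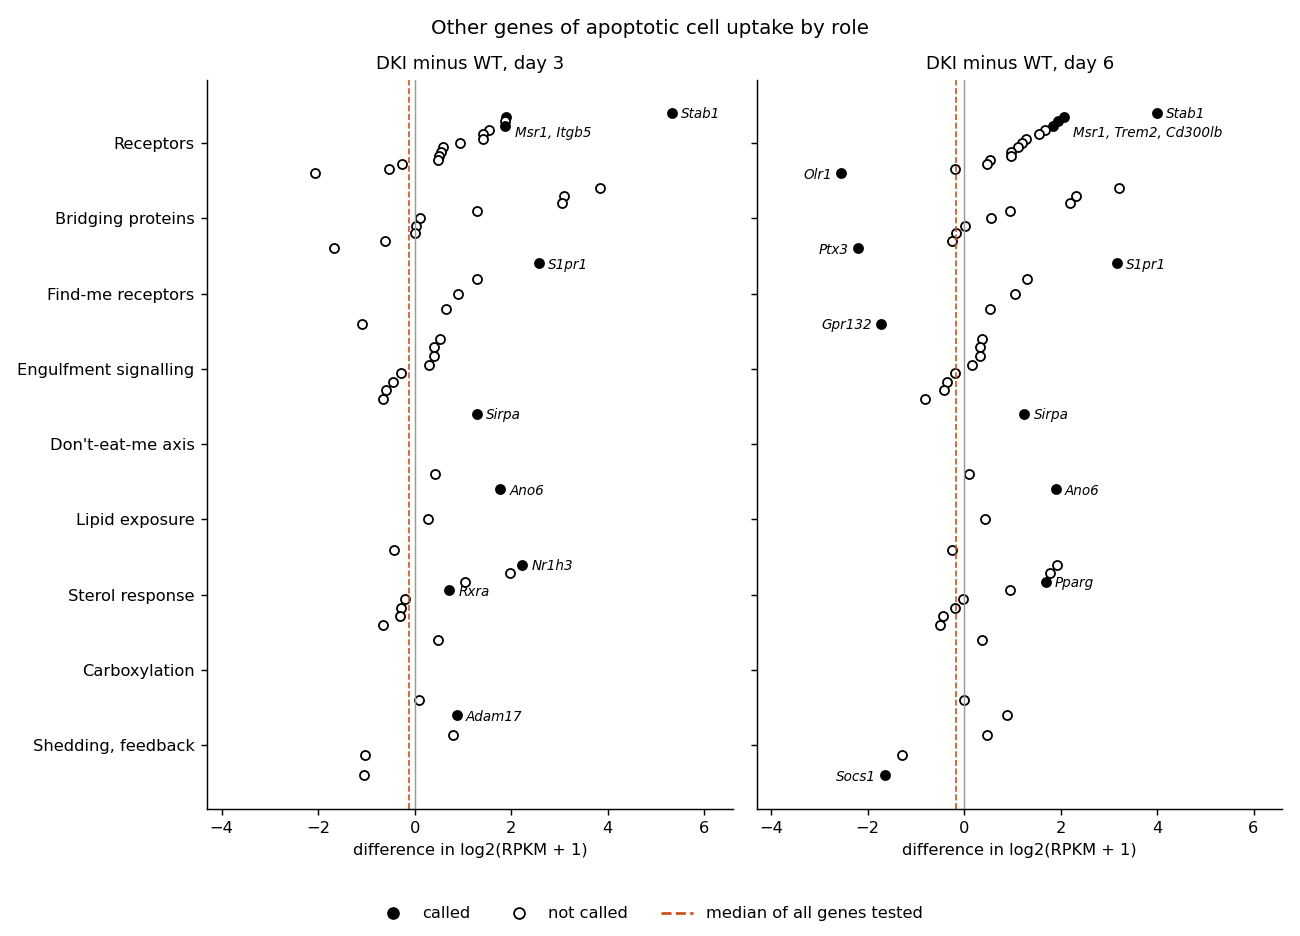
Difference between DKI and WT MDCs in log2(RPKM + 1) for the 56 other uptake genes tested, by role, on days 3 and 6. Filled, labelled points were called, open points were not, and the dashed line marks the median of all genes tested (-0.11 and -0.17). All 9 called genes of day 3 lie above 0, and 8 of 12 on day 6.

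Markers of dendritic cells and macrophages differed between the genotypes in the same libraries. On day 3, 4 of 6 dendritic cell markers were lower and 2 of 5 macrophage markers higher in DKI MDCs by limma, with the same counts on day 6. On day 3 voom called 0 of the macrophage markers. The dendritic cell markers summed to 24766 to 30718 RPKM in WT and 2824 to 9478 RPKM in DKI MDCs on day 3, and to 18694 to 35550 and 4038 to 11912 RPKM on day 6. Macrophage markers summed to 388 to 888 and 1636 to 2548 RPKM on day 3, and to 501 to 927 and 1618 to 2403 RPKM on day 6. DKI replicate 1, with the highest *Mertk* and *Gas6* levels of its group, had the lowest dendritic cell sum and the highest macrophage sum of its group on both days. Monocyte markers (5 genes, 0 called) also did not overlap, at 759 to 1140 RPKM summed in WT and 1398 to 2290 RPKM in DKI MDCs on day 3, and at 611 to 1069 and 1350 to 1628 RPKM on day 6. The part of these cell types in the values of the members was not tested.

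**Figure D5:**
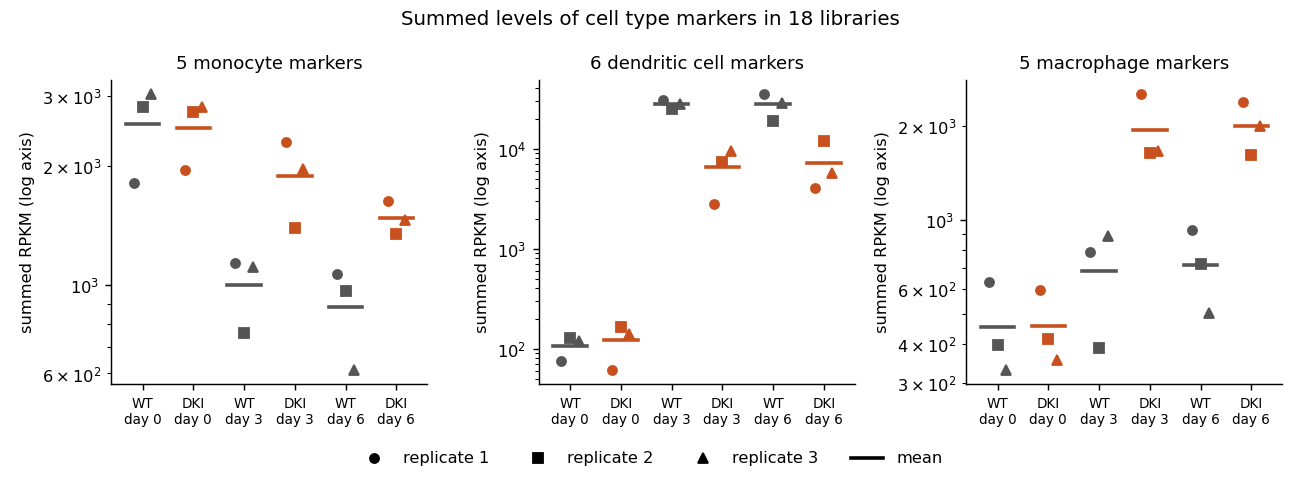
Summed RPKM (log axis) of 5 monocyte, 6 dendritic cell and 5 macrophage markers in each library, by genotype and day, with replicates as symbols and the mean as a bar. On days 3 and 6 the dendritic cell sums of DKI MDCs all lie under those of WT MDCs, and the macrophage sums all lie above them.

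Of the other marker lists, none had a called gene on day 3, and on day 6 only the stromal list did, with 1 gene lower. T cell markers summed to at most 9.73 RPKM and NK cell markers to at most 0.548 RPKM in MDCs, and erythroid markers to at most 0.0181 RPKM. Basophil or mast cell markers reached 95.1 RPKM and platelet markers 111.6 RPKM in single MDC libraries. Stromal markers reached 32.8 RPKM in DKI replicate 1 of day 6, beside 0.575 and 0.191 RPKM in DKI replicates 2 and 3. Endothelial markers reached 31.6 RPKM in DKI replicate 1 of day 3, beside 6.12 and 7.92 RPKM in DKI replicates 2 and 3. The sum of 3 plasmacytoid dendritic cell markers was 1231 RPKM on day 3 and 954 RPKM on day 6 in DKI replicate 1, the library with the highest *Mertk* and *Gas6* of its group, and 76.6 to 241 RPKM in the other MDC libraries. It was nearly all *Bst2*, since *Siglech* and *Ccr9* did not pass 0.532 and 0.152 RPKM. The part of these lists in the values of the members was not tested.

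Over the 18 libraries, the genes with the pattern most like each member were named by Pearson's r of log2(RPKM + 1) among 10417 genes. These values describe libraries that share groups and depth. For *Mertk* they were *Naglu*, *Ctso* and *Scamp5* (r = 0.98, 0.98 and 0.97), the first encoding a lysosomal enzyme and the second a cathepsin. *Gas6* lay closest to the chemokine gene *Ccl12*, *Stab1* and the transcription factor gene *Maf* (0.97, 0.96 and 0.96). *Axl* lay closest to *Snx15*, *Slamf9* and *Akr1c12* (0.98, 0.97 and 0.97), and *Mfge8* to *Zmat3*, the CD11c gene *Itgax* and *Ift43* (0.97 each). *Tyro3* lay closest to *Klk1b9*, *Gnb3* and *Car4* (0.95, 0.95 and 0.93), and *Pros1* to *Mfap3l*, *Zfhx3* and *Vwf* (0.92, 0.91 and 0.89).

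Among the members themselves, *Axl* with *Mfge8* (r = 0.91) and *Mertk* with *Gas6* (0.87) were the most alike. *Pros1* was within 0.15 of 0 with each of the others. *Gas6* and *Tyro3* had an r of -0.22.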

How the data were processed

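RNA-seq was done on 18 libraries (6 groups of 3, grouped by the sample labels). According to the study's methods and the submitters' processing notes, the authors aligned single-end reads to mm10 with Subread, counted them per RefSeq gene with featureCounts and deposited RPKM values. Versions, strandedness and the handling of multiply mapped reads are not given in the sources used here. Of 20298 genes, 20082 identifiers were named by RefSeq. The symbol column of the members was matched ignoring case.

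Genes with a mean above 2 RPKM in at least 1 compared group were fitted with limma 3.58.1 in R 4.3.3 on log2(RPKM + 1) with an intensity trend, each comparison on its own libraries. A gene was called at a fold above 1.5 where p, adjusted after Benjamini and Hochberg, was under 0.05. Differences carry the SE of the fit. Because the deposited unit is RPKM, the authors' edgeR test was not used. The RPKM values were whole multiples of 1 read. Library totals came from intronless receptor genes, of which 1174 were searched. In each library 8 to 20 of them, above 0 and at whole multiples of the smallest value, set the total. A length was searched for each gene. Whole reads (within 0.01) were recovered for 15200 of 15201 genes above 0 in at least 5 libraries (99.99%). Voom on these reads, added after the data were seen, called 523 genes on day 3 and 466 on day 6. The limma fit was also run on simulated reads without replicate effects, which cannot show how it does with the spread between replicates seen here. Values for genes with near copies are uncertain, and intervals and floors cover counting error only.

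Same-numbered WT and DKI libraries, which the series gives as 3 independent experiments, deviated together (correlations of 0.686 to 0.865 on day 0, 0.163 to 0.369 on day 3 and 0.338 to 0.413 on day 6), as did those of days 3 and 6 within a genotype (0.125 to 0.743). Same-numbered libraries of days 0 and 3 mostly did not, with correlations of -0.208 to 0.00244 in WT and -0.0137 to 0.18 in DKI cells. The numbers were therefore taken to pair libraries within a day and between days 3 and 6. A blocked fit (replicate number as block) is given where it changed a call. Across days 0 and 3 the pairing it assumes is not shown. The members and all gene lists were chosen with earlier results of these data known. All members were named, then the 5 called genes with the largest difference in each direction from the list of other uptake genes on days 3 and 6, and the 3 genes with the highest r to each member. Genes named outside these rules were chosen after their values were seen. Some listed genes were not analysed here, and the levels of some marker lists are not reported here. Promoter sequences are from RefSeq (GRCm38.p6), oriented by gene, and gene overlaps from GENCODE M21. Alternatives left out 1 library at a time or those whose names carry the earlier year, dropped the filter, added 0.1 RPKM, centred or quantile-normalized the libraries, or fitted all 18 together.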

Additional observations from a re-analysis of the deposited data

Results flagged for a closer look

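The change from day 0 to day 3 differed between the genotypes for 2 members, by a test of the difference itself. Each call was lost in voom and without some single libraries. That of *Gas6* was also lost with all 18 libraries in 1 fit and without the filter. For *Gas6* the difference between the changes was 3.23 on the log2(RPKM + 1) scale (limma adjusted p = 0.0321), with a mean of 1.31 to 3.13 RPKM in WT and 1.45 to 48.3 RPKM in DKI cells. For *Mertk* it was 2.79 (adjusted p = 0.0188), with 0.215 to 4.34 RPKM in WT and 0.101 to 36.04 RPKM in DKI cells. Macrophage markers, at 388 to 888 RPKM summed in WT and 1636 to 2548 RPKM in DKI MDCs of day 3, moved with both, and their part was not tested.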

How the results depend on the processing

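No member and no named gene of the pathway changed direction in a called value under any alternative. The number of members called on day 3 (3) was 4, with *Mfge8*, under the replicate block, all 18 libraries in 1 fit, 0.1 RPKM added, median centring or quantile normalization. It was 2 without the libraries named for the earlier year, 0 without the filter, where the same differences were adjusted over more genes, 1 in voom, and 0 to 3 with 1 library left out, at 0 without any 1 WT library of day 3. On day 6 (1) it was 2 with the replicate block, 4 with all 18 libraries in 1 fit (*Mertk*, *Axl*, *Tyro3* and *Gas6*), 0 with quantile normalization, 0 without the libraries named for the earlier year, and 0 to 1 with 1 library left out, at 0 without any 1 WT library or DKI replicate 3. For the genotype by day test from day 0 to day 3 (2) it was 3 with the replicate block, 1 with all 18 libraries, 1 without the filter, 0 in voom, and 0 to 3 with 1 library left out, at 0 without replicate 2 of either genotype on day 0. The causes were not tested. The replicate block changed no member's call beyond those given with it (*Mfge8* on day 3 and in the genotype by day test, *Mertk*, *Gas6* and *Tyro3* on day 6). In the genotype by day test the block spans days 0 and 3, where the pairing of replicate numbers is not shown. Among single members, leaving out 1 library left 308 values, called or not, on the same side of the threshold, with 27 calls lost and 4 gained.

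Over all genes, 723 were called on day 3, 1359 with all 18 libraries, 358 without the filter, 369 without the libraries named for the earlier year and 197 to 715 with 1 library left out. On day 6 the counts were 742, 1573, 187, 38 and 90 to 984, with 466 in voom, and median centring moved the share of calls that were higher in DKI MDCs from 36.1% to 53.1%. It took the median log2 difference of all genes from -0.17 to -0.02 there and from -0.11 to -0.04 on day 3, and turned no member. The genotype by day count was 297, 92 in voom and 125 to 336 with 1 library left out. With all 18 libraries 6 genes were called on day 0 and 16 between WT days 3 and 6. In DKI cells from day 0 to day 3, centring moved the higher share from 38.2% to 51.8%, and 1976 genes in place of 3394 were called without DKI replicate 2 of day 0. With 3 libraries a group, depth limited *Timd4* and the day 0 values of *Tyro3* and *Mertk*.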

Other observations

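The 3 chains of complement C1q, which opsonises dying cells, had large but scattered differences, and were picked out after their values were seen. On day 3 *C1qa* averaged 76.6 RPKM for the WT libraries and 793 RPKM for the DKI libraries (log2 difference 3.84 ± 1.35, limma adjusted p = 0.138). *C1qb* (3.09 ± 1.03) and *C1qc* (3.05 ± 1.21) were not called either (adjusted p = 0.124 and 0.171).

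Replicate number moved with the ligands in both genotypes. On days 3 and 6 the highest *Gas6* value of each genotype was in replicate 1 and the highest *Mfge8* value in replicate 2, while the lowest *Pros1* value of each genotype was in replicate 1. In replicate 1 of days 3 and 6 the ratio of *Gas6* to *Pros1* was 0.458 and 0.470 in WT and 16.7 and 9.17 in DKI MDCs, higher than in the other replicates of its group.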
